A study of Mus musculus with 20 samples.

Results

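The 10 genes described here encode heat shock chaperones of the cytosol and the mitochondrion, together with the transcription factor HSF1 that controls many of them. They were taken by name: Hspa1a, Hspa1b, Hspa8, Hsp90aa1, Hsp90ab1, Hsph1, Hspd1, Hspe1, Dnajb1 and Hsf1. All 10 of the 10 named genes had a row among the 13225 genes of the expression table. The cells were mouse alveolar macrophages, the resident phagocytes of the lung air spaces, sorted as positive for CD45, Siglec-F and CD11c. The 4 groups were miR-155 knockout mice of the strain B6.Cg-Mir155tm1.1Rsky/J after cigarette smoke (KO smoke), the same strain after air (KO air), wild type C57BL/6 mice after cigarette smoke (WT smoke) and wild type C57BL/6 mice after air (WT air). Exposure lasted 4 weeks in every group, and each group held 5 mice with 1 poly-A RNA library per mouse. The labels give the knockout as a strain, with no cell-restricted driver, and give no ages.

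Chaperones bind proteins that are unfolded or still folding. In the cytosol, HSP70 proteins bind and release short stretches of a client in cycles driven by ATP. J-domain proteins deliver clients to HSP70, HSP110 proteins reload HSP70 with ATP, and HSP90 takes over many signalling proteins at a late step of folding. Inside the mitochondrion, HSP60 forms a barrel that HSP10 closes as a lid. Under heat, oxidants or other protein damage, HSF1 is released from chaperones, forms trimers and binds repeats of a 5-base unit, GAA with a free base on each side, in alternating orientation. HSF1 activity is set mainly by protein state and not by the amount of its transcript.

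Libraries held 6885680 to 11952088 reads in the table. Alveolar macrophage markers were all measured (11 of 11, including Siglecf, Itgax and Ptprc), with a summed level of 26874 to 33459 CPM in every library, where CPM is a gene's reads scaled to a fixed library total. The 7 markers of monocytes and interstitial macrophages summed to 9.27 to 29.5 CPM in KO smoke, 8.62 to 15.7 CPM in KO air, 19.2 to 165 CPM in WT smoke and 8.50 to 15.4 CPM in WT air, where C1qa and Ly6c2 were at 0. The 4 measured neutrophil markers (of 6) summed to 43.6 to 76.1 CPM in KO smoke, 63.2 to 94.4 CPM in KO air, 39.0 to 68.9 CPM in WT smoke and 59.7 to 84.7 CPM in WT air, with S100a9 at 0 in both air groups. Epithelial markers (4 of 6) summed to 119 to 207 CPM over all libraries, and those of dendritic cells (2 of 3), lymphocytes (1 of 8) and endothelium and stroma (1 of 5) to at most 6.42, 1.91 and 1.69 CPM. The part of these cells in the results was not tested. The 3 KO air libraries IIIb2, IIIb3 and IIIb4 lacked reads for 1645, 1524 and 1451 genes, a number that lay between 259 and 1224 in the rest, and the smoke changes in KO are given without them too. Mir155hg, the host transcript of miR-155, had 8 reads over KO smoke, 25 over KO air, 48 over WT smoke and 2 over WT air. Since the deleted stretch is not described in the labels, those reads do not check the genotype.

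Promoter windows of 250 bases before the start site were present for 6 of the 10 genes in the RefSeq table on GRCm38.p6: Hspa1a, Hspa1b, Hsph1, Hspd1, Hspe1 and Dnajb1. Those of Hspa1b and Hspa1a are shown because these genes had the largest changes with smoke. Capitals mark a pair of facing HSF units. Hspa1b lies on the minus strand of chromosome 17 and its window is chr17:34959239-34959488, read 5′ to 3′ on that strand; the window of Hspa1a, on the same strand, is chr17:34972157-34972406.
Hspa1b: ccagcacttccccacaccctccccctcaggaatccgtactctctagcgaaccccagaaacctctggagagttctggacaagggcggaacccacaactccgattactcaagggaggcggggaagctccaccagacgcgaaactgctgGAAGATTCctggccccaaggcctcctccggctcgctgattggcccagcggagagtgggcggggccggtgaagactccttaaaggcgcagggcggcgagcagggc
Hspa1a: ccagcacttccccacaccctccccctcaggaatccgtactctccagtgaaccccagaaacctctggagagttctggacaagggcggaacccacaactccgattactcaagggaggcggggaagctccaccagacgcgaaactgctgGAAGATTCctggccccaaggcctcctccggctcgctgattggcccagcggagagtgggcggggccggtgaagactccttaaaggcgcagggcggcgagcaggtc
These windows differ at 3 of 250 positions and are 98.8% identical. Counted from 1 at the 5′ end, with the Hspa1a base first, the differences are C44T, T47C and T249G. The same element lies 97 to 104 bases before both start sites.

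The shared stretch between Hspd1 and Hspe1 is shown because it lies in a window of each gene. The 6 genes had 9 windows in all, as some have more than 1 annotated start site. For Hspd1, the window before the start site at chr1:55087932 holds the stretch. The window before its other start site, chr1:55088243, held 0 pairs of units. It is chr1:55088053-55088082, given on the plus strand for Hspe1 and on the minus strand for Hspd1. Its capitals mark a run of alternating units. The Hsph1 stretch, chr5:149636351-149636380 on the minus strand, holds 1 pair of units, also in capitals.
Hspe1: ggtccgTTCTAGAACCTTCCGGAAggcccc
Hspd1: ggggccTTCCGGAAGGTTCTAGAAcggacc
Hsph1: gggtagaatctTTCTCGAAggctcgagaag
The search used GAANNTTC and TTCNNGAA, each of which is its own reverse complement, so that both strands are covered. At least 1 of them was found in windows of 5 of the 6 genes with an entry, with Dnajb1 the exception, against 3932 of the 27025 genes in the table. A run of 3 alternating units, which always contains one of those pairs, was found for Hspd1 and Hspe1 only, against 139 of those 27025 genes (0.514%). The matches among the 6 genes are not independent of each other. The windows of Hspa1a and Hspa1b are nearly identical with the same element, and Hspd1 and Hspe1 share the same stretch. Whether such matches are more frequent among these genes than among all genes was not tested. A match describes the letters in a window, and binding was not measured.

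Levels differed widely among the 10 genes. Per kilobase of the longest coding transcript, and averaged over the 20 libraries, Hsp90ab1 stood highest with 633 ± 120.0 CPM per kilobase (SD, n = 20). Hspa8 followed with 602 ± 186. These levels overlapped, and both were far above the rest. Hspd1 (63.3 ± 9.78), Hspe1 (42.5 ± 11.2), Hsp90aa1 (40.7 ± 14.7) and Hsph1 (28.2 ± 18.0) came next, and neighbours in that order differed by less than the sum of their SDs. Hsf1 had 18.1 ± 2.29 and Dnajb1 16.7 ± 6.01 CPM per kilobase, which also overlapped. The heat-inducible pair was lowest, with 5.03 ± 6.66 for Hspa1b and 4.35 ± 5.22 for Hspa1a. The SD of that pair exceeded its mean, and single libraries held between 11 and 811 reads of Hspa1b and between 12 and 643 of Hspa1a.

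**Figure D1:**
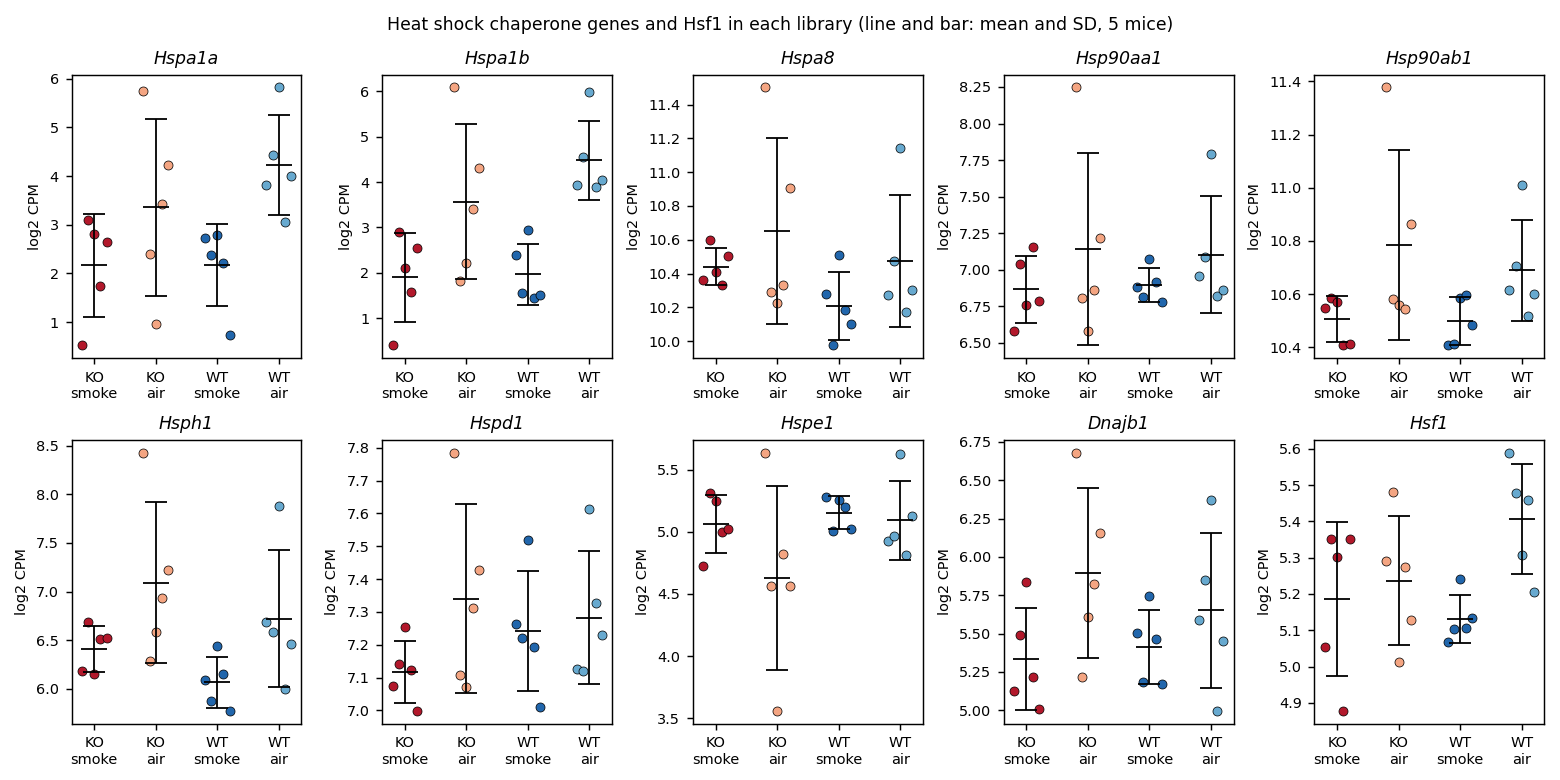
Level of each gene in each library as log2 CPM (vertical axis, scaled separately per gene), with groups in the order KO smoke, KO air, WT smoke and WT air. Each point is 1 mouse, and the line and bar give the mean and SD of 5 mice. Hspa1b in WT smoke lies wholly below WT air, and single high points in KO air and WT air recur from gene to gene.

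The inducible HSP70 genes were lower after smoke, and none of the others was called in either genotype alone. Changes are log2 ratios from limma, a linear model that shares information on variance across genes. In WT, limma called 2 of the 10 genes lower and 0 higher (Benjamini-Hochberg adjusted p under 0.05 over all genes), Hspa1b and Hspa1a, against 12.8% of all genes called lower and 9.66% called higher. In KO, 1 of the 10 was called lower, Hspa1b, and 0 higher, against 8.45% and 7.05% of all genes. With libraries centred on their median instead, the KO calls over all genes turned to 1182 higher and 806 lower, where scaling by library total gave 933 and 1118. The median log2 change of the 10 genes was -0.28 in KO and -0.25 in WT, where the median of all genes was -0.01 and -0.02. Fitted changes were below 0 for 9 of 10 genes in each genotype, Hspe1 being the exception. The signs are not independent of each other, since the chaperone genes moved together from mouse to mouse, as described below. Most of these changes did not pass the test, and the sign of Hspd1 in WT turned under quantile normalization (0.05) and that of Hsf1 in KO under median centring (0.01), while Hspa8 and Hsp90aa1 in KO were at 0.00 without the mouse IIIa5. Without IIIb2, IIIb3 and IIIb4, the KO change was -1.91 for Hspa1a, -0.94 for Hsph1, -0.66 for Hsp90aa1, -0.61 for Dnajb1, -0.47 for Hsp90ab1, -0.45 for Hspa8, -0.33 for Hspd1 and -0.20 for Hsf1, and of these Hsp90ab1 passed (limma adjusted p 0.0264). Fewer cells of a type and less RNA per cell cannot be told apart in such bulk samples.

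Hspa1b (ENSMUSG00000090877.3, chr17:34956436-34959238 in GENCODE M21 on GRCm38) encodes one of a pair of nearly identical heat-inducible HSP70 proteins. Its level was 1.26, 7.45, 4.23, 2.94 and 5.77 CPM in the KO smoke mice, against 67.9, 3.50, 4.58, 10.6 and 19.8 CPM in the KO air mice. In WT smoke it was 5.18, 2.90, 7.65, 2.68 and 2.78 CPM, against 15.3, 23.3, 62.9, 14.7 and 16.5 CPM in WT air. All 5 WT smoke mice lay below all 5 WT air mice, whereas in KO the air mice IIIb1 and IIIb2 lay within the smoke range. The log2 change in WT was -2.51 ± 0.58 (limma SE, 95% interval -3.69 to -1.33, adjusted p 0.00178), which is 5.70-fold lower. In KO it was -1.67 ± 0.58 (interval -2.85 to -0.48, limma adjusted p 0.0489), or 3.17-fold lower. The WT call held with every library left out in turn (limma adjusted p up to 0.0103). The KO call stood at the threshold: it was lost without any of IIIa5, IIIb3, IIIb4, IVa2, IVa5 or IVb2 (limma adjusted p 0.0635 to 0.182). Without IIIa5 the KO change was -1.04, and without the 3 libraries with many genes at 0 it was -2.05 (limma adjusted p 0.0907).

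Hspa1a (ENSMUSG00000091971.3, chr17:34969190-34972156), its neighbour on chromosome 17, had 1.38, 8.54, 6.95, 3.30 and 6.23 CPM in KO smoke, against 53.8, 5.25, 1.89, 10.7 and 18.7 CPM in KO air. WT smoke mice had 6.59, 5.13, 6.86, 4.61 and 1.60 CPM, against 13.9, 21.7, 56.4, 8.31 and 15.9 CPM in WT air. As for Hspa1b, the WT groups did not overlap and the KO groups did. Its log2 change was -2.06 ± 0.63 in WT (limma adjusted p 0.0165, 4.16-fold lower) and -1.19 ± 0.63 in KO (limma adjusted p 0.216). The WT call was lost without the air mouse Ib1 (change -1.66, limma adjusted p 0.0700) or without the smoke mouse IIb3 (-1.70, 0.0622). With all libraries kept, it was also lost without a trend in the variance prior (limma adjusted p 0.0635) and with a robust variance prior (0.0671). Over all genes, 10% had all WT smoke mice below all WT air mice, and 5.34% had that order in KO, where 0 of the 10 genes showed it.

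Hspa1a and Hspa1b cannot be separated with confidence. Of the 50-base words in their longest coding transcripts (GENCODE M21), 58.8% of those of Hspa1a also occur in Hspa1b and 62.3% of those of Hspa1b occur in Hspa1a, and how the authors' counting treated such reads is not given in the sources used here. Summed over both genes, the level averaged 9.61 ± 5.22 CPM in KO smoke, 39.3 ± 47.7 CPM in KO air, 9.20 ± 3.97 CPM in WT smoke and 49.8 ± 39.7 CPM in WT air (SD, n = 5 mice each). The log2 change of the sum was -2.27 ± 0.56 in WT (limma adjusted p 0.00344) and -1.46 ± 0.56 in KO, which missed the threshold (limma adjusted p 0.0792).

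**Figure D2:**
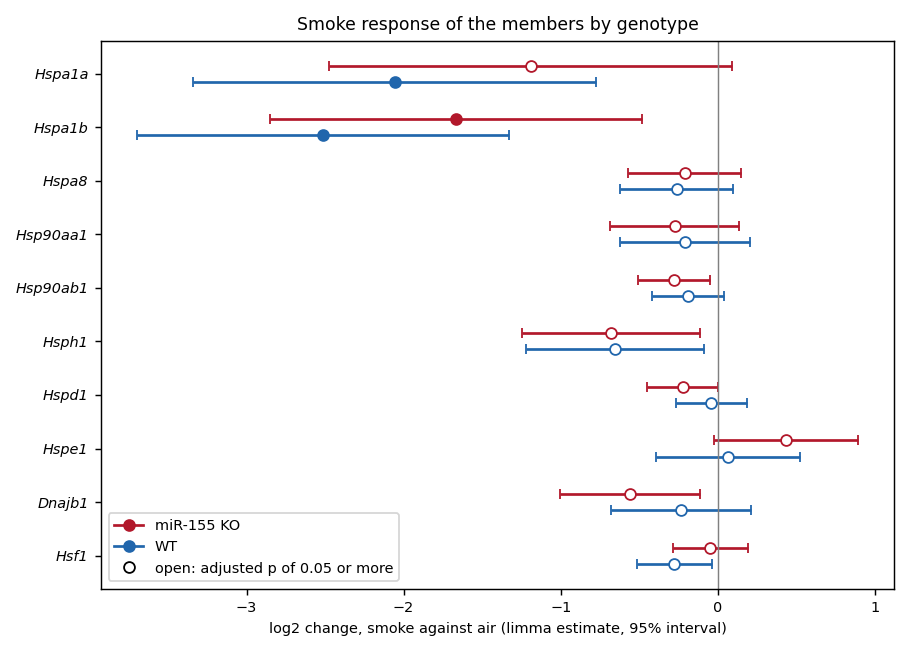
Fitted log2 change with smoke (horizontal axis, smoke against air) for each gene, miR-155 KO above WT. Points are limma estimates with 95% intervals, and filled points passed an adjusted p under 0.05: Hspa1b in both genotypes and Hspa1a in WT.

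Hspa8 (ENSMUSG00000015656.17, chr9:40800984-40810087) encodes the constitutive HSP70 of the cytosol and was the second most abundant of the 10 per kilobase. It had 1313, 1548, 1359, 1291 and 1452 CPM in KO smoke, against 2899, 1251, 1195, 1289 and 1921 CPM in KO air. WT smoke mice had 1240, 1006, 1460, 1161 and 1099 CPM, against 1237, 1420, 2261, 1154 and 1264 CPM in WT air. The groups overlapped in both genotypes, and the air groups each had 1 mouse well above the others. The log2 change was -0.21 ± 0.18 in KO and -0.26 ± 0.18 in WT (limma adjusted p 0.471 and 0.316). Of its 50-base words, 74.8% also occur in other annotated transcripts, most of them in the processed copy Gm15459. That copy had a row of its own with 6.62 to 29.1 CPM, a median of 0.938% of the Hspa8 reads.

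Hsph1 (ENSMUSG00000029657.15, chr5:149614287-149636376) encodes HSP110, the nucleotide exchange factor of HSP70, and shared none of its 50-base words with another gene. Its level was 72.5, 103, 71.0, 91.0 and 92.0 CPM in KO smoke, against 344, 77.8, 95.9, 123 and 149 CPM in KO air. WT smoke mice had 68.0, 58.5, 87.1, 71.3 and 54.7 CPM, against 103, 96.2, 236, 64.0 and 87.9 CPM in WT air. The smoke groups were tighter and their means lower, but they overlapped the air groups. The log2 changes were close in size, -0.68 ± 0.28 in KO and -0.66 ± 0.28 in WT, and neither passed alone (limma adjusted p 0.0978 and 0.0910).

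Dnajb1 (ENSMUSG00000005483.10, chr8:83608193-83612653) encodes HSP40, the J-domain partner of inducible HSP70. It averaged 41.2 ± 10.1 CPM in KO smoke, 63.2 ± 25.2 CPM in KO air, 43.1 ± 7.26 CPM in WT smoke and 52.8 ± 19.1 CPM in WT air (SD, n = 5 mice each). Its log2 change was -0.56 ± 0.22 in KO and -0.24 ± 0.22 in WT (limma adjusted p 0.0826 and 0.496). Values in KO ran from 32.2 to 57.1 CPM with smoke and from 37.1 to 102 CPM with air, so the groups overlapped.

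With the values as deposited, neither cytosolic HSP90 gene was called in either genotype. Hsp90ab1 (ENSMUSG00000023944.14, chr17:45567775-45573271), the constitutive form, averaged 1456 ± 86.7 CPM in KO smoke, 1812 ± 498 CPM in KO air, 1449 ± 91.7 CPM in WT smoke and 1664 ± 233 CPM in WT air (SD, n = 5 mice each). Its log2 change was -0.28 ± 0.11 in KO and -0.19 ± 0.11 in WT (limma adjusted p 0.0893 and 0.240). With quantile normalization it was called lower in both, by -0.43 in KO and -0.39 in WT (limma adjusted p 0.00148 and 0.00270). In KO it was also called under voom weights (-0.30, limma adjusted p 0.0484), with array weights (-0.37, 0.0222) and without IIIb2, IIIb3 and IIIb4. Hsp90aa1 (ENSMUSG00000021270.13, chr12:110690605-110702728), the inducible form, averaged 118 ± 19.0 CPM in KO smoke, 155 ± 85.3 CPM in KO air, 119 ± 9.83 CPM in WT smoke and 142 ± 45.5 CPM in WT air. It changed by -0.27 ± 0.20 in KO and -0.21 ± 0.20 in WT (limma adjusted p 0.400 and 0.515). For Hsp90aa1, 58.5% of the 50-base words occur elsewhere, chiefly in the copy Gm12346, which held at most 1.35 CPM.

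Hspd1 (ENSMUSG00000025980.14, chr1:55077835-55088243) and Hspe1 (ENSMUSG00000073676.4, chr1:55088132-55091307) encode mitochondrial HSP60 and its lid HSP10. They lie head to head on opposite strands, and their annotated 5′ ends overlap. Reads from that overlap cannot be told apart unless strand was used, which is not given in the sources used here. Of the 50-base words, 44.8% of those of Hspd1 also occur in other annotated transcripts, chiefly Hspd1-ps3. For Hspe1 the share was 44.8% as well, chiefly with AC117239.2. Neither Hspd1-ps3 nor AC117239.2 had a row of its own. Hspd1 had 135, 141, 153, 139 and 128 CPM in KO smoke, against 221, 138, 134, 159 and 172 CPM in KO air. WT smoke mice had 154, 149, 183, 146 and 129 CPM, against 140, 139, 196, 161 and 150 CPM in WT air. Its log2 change was -0.22 ± 0.11 in KO and -0.04 ± 0.11 in WT (limma adjusted p 0.185 and 0.848).

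Hspe1 was the 1 gene whose fitted change with smoke was above 0. It had 26.4, 39.7, 38.0, 31.9 and 32.5 CPM in KO smoke, against 49.7, 23.6, 11.7, 28.2 and 23.5 CPM in KO air. WT smoke mice had 38.9, 32.1, 38.2, 36.7 and 32.4 CPM, against 30.4, 31.1, 49.4, 28.0 and 34.8 CPM in WT air. The log2 change was 0.43 ± 0.22 in KO and 0.06 ± 0.22 in WT (limma adjusted p 0.207 and 0.889). The KO value depended on the libraries kept. With single libraries left out it ran from 0.17 to 0.69. Without the air mice Ib1 and IIIa5, a refit added after the data were seen, it was 0.69 and passed (limma adjusted p 0.00947). These mice had the highest Hspe1 of their air groups, so leaving them out raises the smoke change by construction. Without IIIb2, IIIb3 and IIIb4 the KO change was -0.04 (limma adjusted p 0.945).

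Hsf1 (ENSMUSG00000022556.11, chr15:76477422-76501913) encodes the regulator of the other genes' heat response. It had 33.2, 40.7, 39.4, 29.4 and 40.8 CPM in KO smoke, against 39.1, 44.6, 32.2, 38.6 and 34.9 CPM in KO air. WT smoke mice had 33.5, 34.3, 37.8, 34.4 and 35.1 CPM, against 48.1, 44.5, 39.5, 43.9 and 36.8 CPM in WT air. In WT only the smoke mouse IIb1 and the air mouse Ib4 broke the separation of the groups. The log2 change was -0.05 ± 0.12 in KO and -0.28 ± 0.12 in WT (limma adjusted p 0.837 and 0.0898).

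Averaging the smoke effect over both genotypes in the same model, a comparison added after the data were seen, moved more genes past the threshold. limma then called 5 of the 10 genes lower and 0 higher, against 17.2% and 13.6% of all genes. The changes were -2.09 ± 0.41 for Hspa1b (limma adjusted p 0.000203), -1.62 ± 0.44 for Hspa1a (0.00535), -0.67 ± 0.20 for Hsph1 (0.00938), -0.24 ± 0.08 for Hsp90ab1 (0.0220) and -0.40 ± 0.15 for Dnajb1 (0.0496). Without the air mice Ib1 and IIIa5 the calls were Hspa1b (-1.59), Hspa1a (-1.13) and Hsph1 (-0.36) lower and Hspe1 (0.44) higher. Hsp90ab1 (-0.12, limma adjusted p 0.0693) and Dnajb1 (-0.21, 0.243) were no longer called. Those mice were the highest of their air groups for every chaperone gene, so leaving them out moves these smoke changes upward by construction. Without IIIb2, IIIb3 and IIIb4 there were 7 calls, all lower: Hspa1b (-2.28), Hspa1a (-1.98), Hsph1 (-0.80), Hsp90aa1 (-0.43), Hspa8 (-0.36), Hsp90ab1 (-0.33) and Hsf1 (-0.24), while Dnajb1 (-0.42, limma adjusted p 0.0883) was not called. With a robust variance prior, Hspa1a and Hspa1b were the 2 calls.

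Loss of miR-155 left no called difference in these genes. Of the 10, limma called 0 between KO air and WT air, where 0.416% of all genes were called in either direction, and 0 between KO smoke and WT smoke, where 1.58% were (118 genes higher and 91 lower, or 192 and 73 with median centring). Voom weights on the recovered reads also called 0 of the 10 in each. At an unadjusted p under 0.05 there was 1 gene in air, Hspe1 (-0.46 ± 0.22, limma adjusted p 0.427), and 0 in smoke. No gene of the 10 separated the genotypes without overlap, against 1.83% of all genes in air and 4.24% in smoke. For Hspa1b the KO minus WT log2 difference was -0.91 ± 0.58 in air, with a 95% interval of -2.09 to 0.28, and -0.06 ± 0.58 in smoke, with an interval of -1.25 to 1.12. The intervals were tighter for the abundant genes: Hspa8 differed by 0.18 (-0.18 to 0.54) in air and by 0.23 (-0.13 to 0.59) in smoke, and Hsp90ab1 by 0.10 (-0.13 to 0.32) and 0.01 (-0.22 to 0.23).

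The smoke responses of the genotypes were not shown to differ. For the difference of responses, KO minus WT, limma called 0 of the 10 genes and 0% of all 13225, with 0 of the 10 and 1302 of all genes at an unadjusted p under 0.05. Voom weights called 0 as well. The difference was 0.84 ± 0.82 for Hspa1b (95% interval -0.83 to 2.52) and 0.87 ± 0.89 for Hspa1a (-0.95 to 2.68). For that pair, several-fold differences above 0 thus lay within the intervals and were not excluded. The interval was narrower for Hspa8, 0.05 ± 0.25 (-0.45 to 0.56), and for Hspd1, -0.18 ± 0.16 (-0.50 to 0.14). The comparisons within a genotype and within an exposure share their groups, and their values are not independent of each other.

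The 9 chaperone genes varied together from mouse to mouse inside the groups, while no pair with Hsf1 passed the test. The WT air mouse Ib1 and the KO air mouse IIIa5 had the highest level in their group for 9 of the 10 genes, all but Hsf1. Measured as the log2 deviation from the group mean, the median over the 9 chaperones was 1.01 in IIIa5 and 0.69 in Ib1. In IIIa5 the deviations ran from 0.44 for Hspd1 to 2.51 for Hspa1b, and in Ib1 from 0.32 to 1.59. The deviation of Hsf1 was 0.05 in IIIa5 and -0.10 in Ib1. Among the smoke mice, IVa4 was highest for 6 genes in KO and IIb1 for 8 in WT. At the other end, Ib2 was lowest of WT air for 8 genes and IIIb2 lowest of KO air for 6. Hsf1 was among the genes of IIb1 (deviation 0.11) and IIIb2 (-0.23), and not among those of IVa4 and Ib2. IIIa5 was the deepest library, with 11952088 reads, while Ib1 had 9004851, within the range of the others. The median deviation of the 8907 genes averaging a log2 CPM of 3 or more was -0.00 in each of these libraries. What set these mice apart was not tested.

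**Figure D3:**
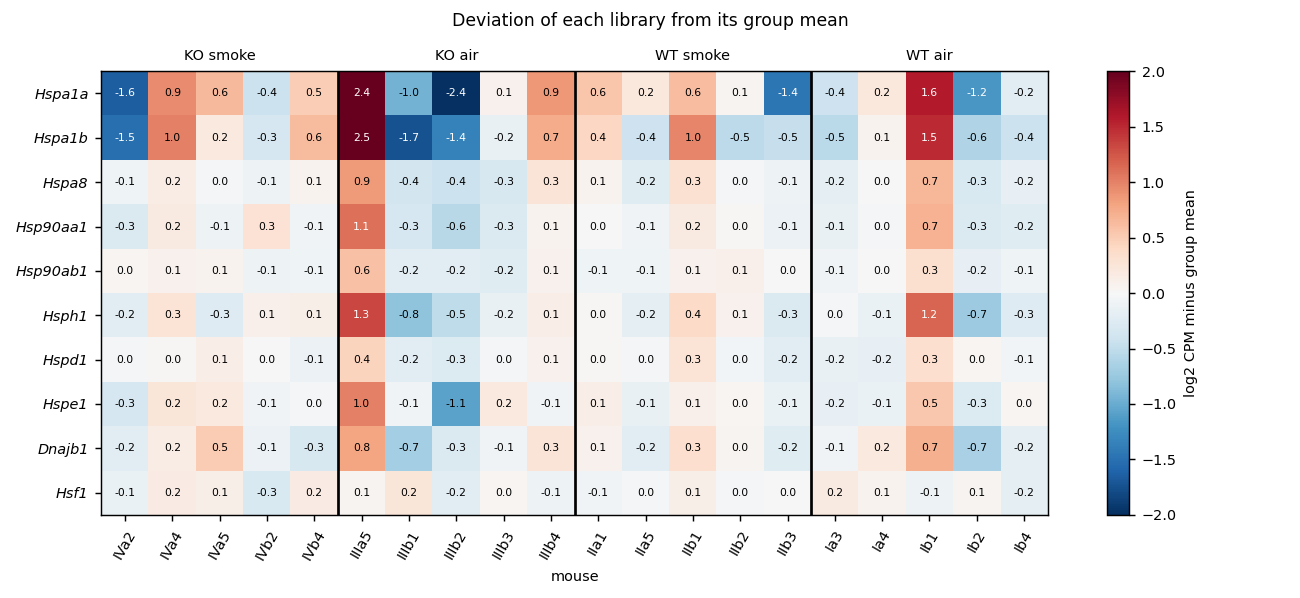
Deviation of each library from its group mean (log2 CPM, printed in each cell and coloured from blue for low to red for high, with colours capped at 2) for the 10 genes, with mice grouped as KO smoke, KO air, WT smoke and WT air. The columns of IIIa5 and Ib1 are red in all chaperone rows and near 0 in the Hsf1 row.

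Over the 36 pairs of chaperone genes, Pearson's r of these deviations across 20 libraries ran from 0.69 to 0.94, with a median of 0.81. All 36 passed a permutation test within groups (100000 permutations, 2-sided, adjusted p 0.00015 to 0.019 over 45 pairs). Spearman's rho ran from 0.43 to 0.93, and 35 of 36 passed, with Hsp90ab1 and Hspe1 the exception (permutation adjusted p 0.12). The highest r, 0.94, was between Hspa8 and Hsph1 (rho 0.86, permutation adjusted p 0.00022 for r). With the 2 mice farthest from the median left out, r still ran from 0.40 to 0.88. Without Ib1 and IIIa5 the median r was 0.64, so part of the height of r came with those mice. Hsf1 gave r of -0.05 to 0.28 with the 9 chaperones, rho of -0.06 to 0.26, and 0 of 9 pairs passed (permutation adjusted p 0.42 to 0.99). Without Ib1 and IIIa5, r ran from -0.02 to 0.40 for the pairs with Hsf1 (median 0.09). Among the chaperones it then ran from 0.40 to 0.85, so the ranges met. The deviations share library scaling, and the cause of the shared movement was not tested.

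**Figure D4:**
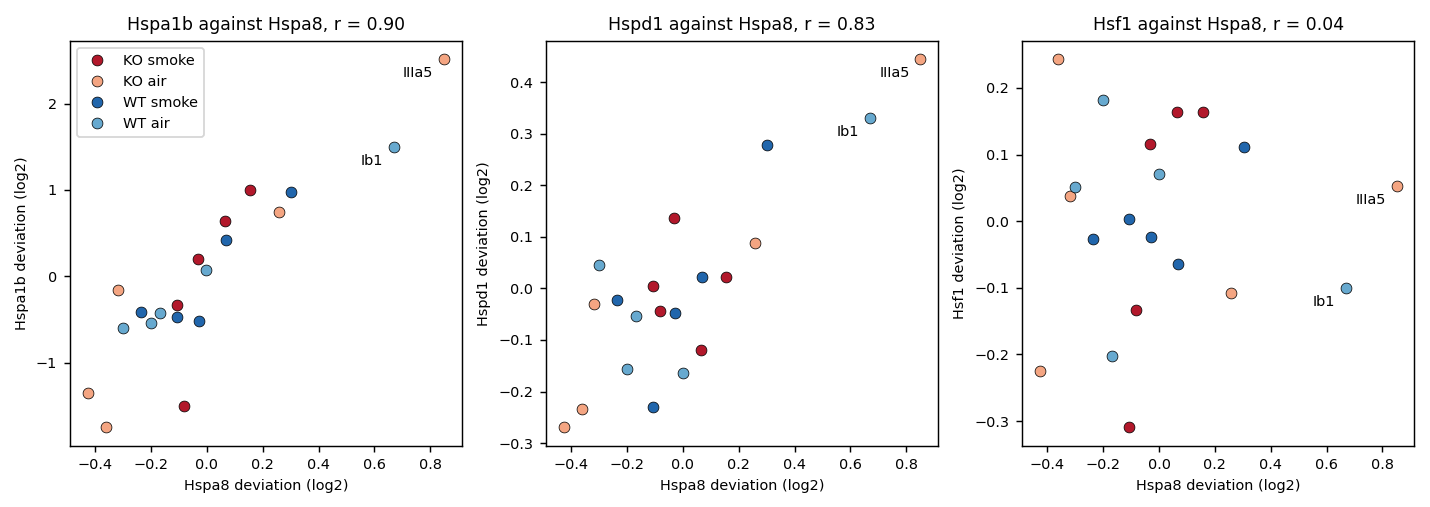
Deviation from the group mean (log2) of Hspa1b, Hspd1 and Hsf1 against that of Hspa8, 1 point per mouse, coloured by group. Hspa1b (r = 0.90) and Hspd1 (r = 0.83) follow Hspa8 and Hsf1 (r = 0.04) does not, and IIIa5 and Ib1 lie at the upper end for the chaperones.

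The genes most like Hspa8 in these deviations, among 8907 compared and outside the 10, were Dnaja1 (r = 0.96), Ahsa2 (0.92), Slc5a3 (0.92), Cacybp (0.91) and Cybc1 (0.91). Dnaja1 encodes another J-domain partner of HSP70, Ahsa2 a relative of the HSP90 activator Aha1, and Slc5a3 the myo-inositol transporter. Most like Hspa1b were Dnaja1 (r = 0.91), Il1b (0.91), Ahsa2 (0.89), Hspa5 (0.87) and Slc5a3 (0.86). Il1b encodes the cytokine interleukin 1 beta and Hspa5 the HSP70 of the endoplasmic reticulum. Most like Hspd1 were Stip1 (r = 0.92), Ahsa2 (0.84), Tec (0.83), Cybc1 (0.83) and Cacybp (0.83), of which Stip1 encodes HOP, the adaptor between HSP70 and HSP90. These r are over 20 libraries and carry no p, and without Ib1 and IIIa5 they were lower, from 0.73 for Cacybp to 0.93 for Dnaja1 with Hspa8, from 0.72 for Slc5a3 to 0.87 for Il1b with Hspa1b, and from 0.61 for Cacybp to 0.84 for Stip1 with Hspd1. Of these genes, Slc5a3 (-1.38 ± 0.27, limma adjusted p 0.000285) and Il1b (-1.55 ± 0.47, 0.0171) were also lower with smoke in WT, while Cybc1 (-0.38 ± 0.11, 0.0147) was lower with smoke in KO. Averaged over genotypes, limma called Slc5a3 (-1.06, adjusted p 6.09e-05), Cybc1 (-0.32, 0.00190), Il1b (-1.31, 0.00327), Stip1 (-0.30, 0.0241) and Dnaja1 (-0.48, 0.0252) lower. Tec (0.34, limma adjusted p 0.00902) was called higher, and Ahsa2, Cacybp and Hspa5 were not called. Of all genes, 17.2% were lower and 13.6% higher there.

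The co-movement did not extend evenly over the chaperone network. Against Hspa8, the median r was 0.10 for 15 HSP90 co-chaperones, 7 of them above 0.5, and 0.06 for 14 other J-domain proteins, 3 of them above 0.5. It was 0.01 for 13 HSP70 relatives and regulators (3 above 0.5), 0.35 for 14 subunits of the CCT chaperonin and prefoldin (4 above 0.5), and 0.34 for 15 immediate early genes (5 above 0.5). For 17 other mitochondrial chaperones and proteases it was 0.06, with 0 above 0.5. Over all 8907 genes the median r was -0.02, with 444 above 0.5. Against Hspa1b, the immediate early genes had a median r of 0.41, with 7 of 15 above 0.5. The HSP90 co-chaperones also had 7 of 15 above 0.5, with a median of 0.09. CCT and prefoldin had 3 of 14, with a median of 0.34. Over all 8907 genes, 406 were above 0.5 against Hspa1b. Against Hspd1, the median was 0.45 for CCT and prefoldin and 0.33 for the HSP90 co-chaperones. These r are given as a description, with no p.

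The other chaperone lists had scattered calls with smoke, beside 8.45% of all genes lower and 7.05% higher in KO, and 12.8% lower and 9.66% higher in WT. Of 16 measured HSP70 relatives and regulators, limma called 2 lower in KO, Hspa12a (-0.50, adjusted p 0.00198) and Hspbp1 (-0.44, 0.0197). In WT it called 2 lower, Hspa12a (-0.85, adjusted p 1.48e-06) and Bag5 (-0.63, 0.0175), and 1 higher, Bag1 (0.42, 0.000129). Bag1 and Bag5 are nucleotide exchange factors of HSP70, as is Hspbp1, while Hspa12a is a distant HSP70 relative. Of 17 other J-domain proteins, Dnajc7 was lower in KO (-0.31, limma adjusted p 0.00192) and in WT (-0.27, 0.00537), and Dnaja2 was lower in WT (-0.22, 0.0150). Of 15 HSP90 co-chaperones, Fkbp4, an immunophilin of steroid receptor complexes, was lower in KO (-0.54, limma adjusted p 0.0112), and Sugt1 was higher in WT (0.30, 0.0175). The median log2 change of these 3 lists was -0.03, 0.02 and -0.18 in KO, and 0.13, 0.03 and -0.13 in WT, in that order, beside -0.01 and -0.02 for all genes. Averaged over genotypes, limma called 2 of 16 HSP70 relatives and regulators lower and 1 higher. It called 4 of 17 J-domain proteins lower and 1 higher, and 4 of 15 HSP90 co-chaperones lower and 0 higher. Of all genes, 17.2% were lower and 13.6% higher in that comparison.

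Of 17 other mitochondrial chaperones and proteases, limma called 0 in KO, with 2 at an unadjusted p under 0.05. In WT it called 2 higher, Dnajc15 (0.59, adjusted p 0.0157) and Hspa9 (0.21, 0.0244), which encodes mitochondrial HSP70. Of 14 CCT and prefoldin subunits, Pfdn5 (-0.39, limma adjusted p 0.00154), Cct4 (-0.22, 0.0207) and Cct7 (-0.26, 0.0216) were lower in KO. In WT, Pfdn5 was lower (-0.28, limma adjusted p 0.0179) and Pfdn1 higher (0.64, 0.000118). The 3 measured small heat shock proteins had 0 calls by limma in either genotype and 0 at an unadjusted p under 0.05. The 3 measured genes for other heat shock factors and HSF1 binding proteins had 0 calls as well, with 0 in KO and 1 in WT at an unadjusted p under 0.05. Averaged over genotypes, limma called 3 of the 17 mitochondrial genes higher and 0 lower. Of the 14 CCT and prefoldin subunits it called 3 lower and 1 higher. Between genotypes, 0 genes of these 7 chaperone lists were called in air or in smoke, where 0.416% and 1.58% of all genes were. The shares of all genes called with smoke are those given for the lists above.

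Immediate early genes, which are transcribed within minutes of a stimulus, were examined beside the chaperones. Of 18 measured, limma called 6 lower in KO smoke than KO air and 8 lower in WT smoke than WT air, with 0 higher, where 8.45% of all genes were lower in KO and 12.8% in WT. The median log2 change was -0.50 in KO and -0.33 in WT, beside -0.01 and -0.02 for all genes. The most significant were Ier5 (-0.54, adjusted p 3.63e-05), Zfp36 (-0.62, 0.000427), Ier2 (-0.59, 0.00104) and Btg2 (-0.61, 0.00572) in KO. In WT they were Ier5 (-0.56, limma adjusted p 1.41e-05), Btg2 (-0.95, 2.87e-05), Klf6 (-0.47, 0.000690) and Fos (-0.72, 0.00663). Between genotypes, Egr1 was lower in KO smoke than WT smoke (-2.21, limma adjusted p 0.0182). Of the 15 immediate early genes with a mean log2 CPM of 3 or more, 11 lay above the group mean in IIIa5 and 8 in Ib1, with a median deviation of 0.20 in IIIa5 and 0.03 in Ib1, beside -0.00 for all such genes. Their part in the levels of the 10 genes was not tested.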

How the data were processed

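Alveolar macrophage RNA of 20 mice was measured by poly-A RNA sequencing. Per the labels' protocols, 25 ng of miRNeasy Mini RNA went into TruSeq mRNA libraries. Per the submitters' processing notes, STAR 2.6.0c, limma and genome build GRCm38.p6 were used. How reads were counted, with which annotation and strand setting, is not given in the sources used here. Values reached GEO as log2 CPM, which the authors deposited in the voom form, with 0.5 reads added to each gene and 1 to the total. Whole reads came back from every value within 0.001 in all 20 libraries. Depth was 6885680 to 11952088 reads, and 3 reads equal 0.251 to 0.436 CPM. Precision from depth covers counting error only.

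Groups came from the labels. Each mouse code occurs once, so no pairing was used. The model was limma 3.58.1 in R 4.3.3 over the 13225 genes of the table, on the values as deposited, with one mean fitted for each group, an empirical Bayes variance with mean trend, 2-sided tests, Benjamini-Hochberg adjustment over all genes and a threshold of 0.05. It was also run on simulated counts drawn with the same relative spread for every gene. That run does not cover genes as variable between mice as Hspa1a and Hspa1b. Within-group correlations were tested by 100000 permutations within groups; the smallest p they can give is 1e-05. Sequence overlap used 50-base words of GENCODE M21 transcripts. Python 3.11.15 did the remaining work.

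The 10 genes, the 8 other gene lists and the markers were chosen with earlier results of these data known. Each of the 10 is given with its smoke change in KO and in WT. The other comparisons give the count of called genes, with only some of the 10 named. From each other list, up to 4 called genes with the smallest p are named for smoke within a genotype and for KO against WT. The 5 genes most like Hspa1b, Hspa8 and Hspd1 are named too. Markers of eosinophils and red blood cells are not analysed here. Alternatives were the variance prior, voom weights, log2 of CPM plus 1, a mean log2 CPM of at least 1, quantile normalization, median centring, the compared groups only, the letter of the mouse code, array weights, summed Hspa1 reads and libraries left out. Leaving out Ib1 and IIIa5 together was added after the data were seen. These mice stood out through the chaperone genes themselves.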

Additional observations from a re-analysis of the deposited data

Results flagged for a closer look

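Of 40 groups of 5 mice checked (10 genes in 4 groups), 2 had a mouse far from the others, where chance gives about 1 in 20. The WT smoke mouse IIb3 had the lowest Hspa1a of its group, a log2 CPM of 0.73, with the nearest other mouse at 2.22. The WT air mouse Ib1 had the highest Hsp90aa1 of its group, a log2 CPM of 7.79, with the nearest other mouse at 7.09. Ib1 was also the highest of its group for 8 further genes of the 10.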

How the results depend on the processing

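Over 1518 refits of single genes, 1382 kept direction and side of the threshold, 43 lost a call, 25 gained one and 68 changed sign, 0 of which were called. The count of called genes between genotypes, and for the difference of responses, was 0 under every alternative run. With smoke in WT the count was 2. It was 1 without a variance trend or with a robust prior, where Hspa1a lost its call. With Hspa1 reads summed it was 1 as well, since the pair then counts as 1 feature, which stayed called. It was 3 with quantile normalization (Hsp90ab1 gained), the compared groups only (Hsph1) or array weights (Hsf1). With single libraries left out it ran from 1 to 3. With smoke in KO the count was 1. It was 0 without a trend, with a robust prior, with median centring, with the compared groups only and with summed Hspa1 reads, 2 with quantile normalization or the letter of the mouse code, and 4 with array weights. It ran from 0 to 3 with single libraries left out. Under voom weights, and without IIIb2, IIIb3 and IIIb4, the KO call was Hsp90ab1 in place of Hspa1b, and without IIIa5 it was Hspe1. Averaged over genotypes the count was 5, and 3 without a trend or with median centring, 2 with a robust prior, and 4 without Ib1 and IIIa5. With summed Hspa1 reads the count was 4, since the pair then counts as 1 feature, and no call was lost. Without IIIb2, IIIb3 and IIIb4 the count was 7 (Hspa8, Hsp90aa1 and Hsf1 gained, Dnajb1 lost). It ran from 3 to 5 with single libraries left out, being 3 without Ib1. Dnajb1, averaged over genotypes, lost its call in 20 of 32 alternatives. The cause of these shifts was not tested. Sign changes with smoke in KO were Hsf1 with median centring (0.0054), Hspe1 without IIIb2, IIIb3 and IIIb4 (-0.038), and Hspa8 (0.0025) and Hsp90aa1 (0.0015) without Ib1 and IIIa5. In WT, Hspd1 turned with quantile normalization (0.046) and without Ib1 and IIIa5 (0.041). Between genotypes in smoke, Hspa1a turned with log2 of CPM plus 1 (0.014), median centring (0.030) and quantile normalization (0.053), Hsp90aa1 with median centring (0.0053), Hspa1b with array weights (0.057) and Hsp90ab1 with the letter of the mouse code (-0.017). In air, Hspe1 turned without IIIb2, IIIb3 and IIIb4 (0.0093) and Hsp90aa1 without Ib1 and IIIa5 (-0.066). The difference of responses turned for Hspa8 with array weights (-0.13) and without IIIb2, IIIb3 and IIIb4 (-0.19), for Hspe1 without these 3 (-0.10), and for Hsp90aa1 (0.038) and Hsph1 (0.020) without Ib1 and IIIa5. With single libraries left out, the values that changed sign ran as follows. With smoke in KO, Hsf1 ran from -0.11 to 0.027, Hsp90aa1 from -0.42 to 0.0015 and Hspa8 from -0.32 to 0.0025. In WT, Hspd1 ran from -0.11 to 0.041 and Hspe1 from -0.0071 to 0.20. Between genotypes in smoke, Dnajb1 ran from -0.20 to 0.0044, Hsp90aa1 from -0.10 to 0.044, Hsp90ab1 from -0.015 to 0.033, Hspa1a from -0.36 to 0.41 and Hspa1b from -0.31 to 0.31. In air, Hsp90aa1 ran from -0.24 to 0.21, Hsp90ab1 from -0.052 to 0.18, Hspa8 from -0.035 to 0.35 and Hspd1 from -0.053 to 0.14. The difference of responses ran from -0.24 to 0.21 for Hsp90aa1, from -0.17 to 0.060 for Hsp90ab1, from -0.11 to 0.27 for Hspa8 and from -0.31 to 0.31 for Hsph1. No paired analysis was possible because mouse codes do not repeat across groups. Hspa1a and Hspa1b rested on as few as 12 and 11 reads in a library, which widens their errors.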
